A study of Mus musculus with 6 samples.

Results

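The loci that encode the T cell receptor chains were examined in CD8+ T cells of WT, hSTAT5B and hSTAT5BN642H mice, both for the methylation of their CpGs and for the number of reads along them. Every CpG in the deposited calls was taken that lay on chromosome 14 from 52.4 to 54.23 Mb (Tcra, with Tcrd inside it), on chromosome 6 from 40.89 to 41.56 Mb (Tcrb) or on chromosome 13 from 19.17 to 19.36 Mb (Tcrg) of the mm10 (GRCm38) build. These intervals held 2729 of the 4175106 CpGs listed in the genome, of which 2066 lay at Tcra and Tcrd, 511 at Tcrb and 152 at Tcrg. A methylation level was computed for the 719 of them that had 5 or more reads in each of the 6 libraries (566, 109 and 44 at the 3 loci), out of 1192344 such CpGs in the genome. Read numbers used all 2729 CpGs, in bins of 10 kb.

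The CD8+ T cells were enriched with a magnetic sorting kit from lymph nodes of C57BL/6N mice aged 13 weeks, and there were 2 libraries per genotype. WT mice carried no transgene. hSTAT5B mice (genotype hSTAT5B +/T) expressed the human signal transducer STAT5B, and hSTAT5BN642H mice (hSTAT5B N642H +/T) expressed the form with an activating mutation and were diseased. Both transgenes were driven by the Vav1 promoter, which is active throughout the hematopoietic system, so expression was not limited to T cells. DNA was analyzed by reduced representation bisulfite sequencing (RRBS), in which the enzyme MspI cuts at CCGG and reads start at the ends of short fragments. The labels do not say that the replicates came from separate mice, so the p-values measure the spread between these libraries.

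T cell receptor genes are assembled during development by recombination of V, D and J gene segments, and the DNA between the joined segments is usually excised from the chromosome. Tcra and Tcrb encode the chains of the αβ receptor that CD8+ T cells mostly carry, whereas Tcrg and Tcrd encode those of the γδ receptor. Tcrd lies between the Trav/Trdv array and the Traj array, so that a V-to-J joining at Tcra removes Tcrd, the V segments nearest to it and the first Traj segments. A cell can repeat this joining with V segments farther upstream and Traj segments farther downstream. At Tcrb, joining removes the DNA between the chosen Trbv segment and the D and J segments, including an interval of trypsinogen genes. Reads missing from a stretch can therefore mark alleles that have recombined, and active joining and constant regions are often less methylated than the V arrays. In bulk DNA, fewer cells that keep a stretch of DNA cannot be told apart from other losses of reads.

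The sequences that carry the main values are shown first, each with the CpGs that had reads in capitals and read 5′ to 3′ on the plus strand of GRCm38. The first 3 windows hold CpGs of the 10-kb bins in which read numbers differed, at chr14:54026371-54026432 and chr14:54084519-54084655 in the 3′ end of the Trav/Trdv array and at chr14:54156648-54156749 between Traj59 and Traj58.
Trav/Trdv array, first window: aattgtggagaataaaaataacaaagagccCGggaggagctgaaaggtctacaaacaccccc
Trav/Trdv array, second window: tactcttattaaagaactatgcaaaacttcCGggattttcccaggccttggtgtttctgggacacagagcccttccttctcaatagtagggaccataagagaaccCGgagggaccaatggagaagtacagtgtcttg
Start of the Traj array: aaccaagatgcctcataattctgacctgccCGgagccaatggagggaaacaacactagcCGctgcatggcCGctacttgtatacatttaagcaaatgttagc

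The other 4 windows hold the CpGs with the largest differences in methylation between hSTAT5BN642H and WT cells among those with 10 or more reads in every library, and the intronic CpGs of Trac. They lie at chr6:41542835-41542995 beside Trbj2-1, at chr14:54188910-54189054 between Traj31 and Traj30, at chr14:54176441-54176593 beside Traj41 and at chr14:54221122-54221196 in an intron of Trac.
Beside Trbj2-1: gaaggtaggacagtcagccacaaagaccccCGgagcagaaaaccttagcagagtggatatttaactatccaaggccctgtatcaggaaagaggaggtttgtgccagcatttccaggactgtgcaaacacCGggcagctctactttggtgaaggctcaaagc
Between Traj31 and Traj30: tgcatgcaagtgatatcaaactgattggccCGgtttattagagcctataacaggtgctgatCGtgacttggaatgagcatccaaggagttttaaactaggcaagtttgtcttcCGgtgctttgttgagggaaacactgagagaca
Beside Traj41: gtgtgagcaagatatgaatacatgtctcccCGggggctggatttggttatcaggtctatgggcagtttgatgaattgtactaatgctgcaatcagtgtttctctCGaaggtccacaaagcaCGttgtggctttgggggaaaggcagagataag
Intron of Trac: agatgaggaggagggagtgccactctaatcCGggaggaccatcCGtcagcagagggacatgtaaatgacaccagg

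The libraries held between 43291086 and 67007186 CpG reads, and WT replicate 1 stood apart in 2 ways. It listed 3445555 CpGs, against 2597893 to 3067773 in the other 5, and 13.2% of its reads lay at sites whose shorter flanking MspI fragment was at least 400 bp long, against 7.74% to 11.0%. It also differed at some genes that mark T cells. Cd8a, which encodes a chain of the CD8 coreceptor, had a mean level of 49.5% and 17.03% in the WT libraries, 18.01% and 25.2% in the hSTAT5B libraries and 10.1% and 5.63% in the hSTAT5BN642H libraries. Cd8b1, which encodes the partner chain, was at 45.6% and 44.6%, 26.0% and 27.6%, and 15.4% and 15.3%, in the same order. The 8 T cell genes examined (87 CpGs), each gene counted equally, had a mean level of 57.0% in WT replicate 1 and of 36.6% to 44.7% in the other 5. WT replicate 1 stood clearly above the other 5 only at Cd8a (7 CpGs), Cd3d (2) and Cd3e (1). At Cd3g, Lck, Cd5 and Cd6 it was at 82.65%, 38.8%, 70.9% and 68.8%. The highest library was another one there, at 84.05%, 39.1%, 74.45% and 70.6%. The lists for B cells (55.2% to 58.7%), CD4 T cells (20.5% to 22.7%) and myeloid cells (59.7% to 61.8%) varied less, and the NK cell list had 2 CpGs at 99.0% to 100%. Methylation is an indirect check of the labeled cell type. By it the genes of CD8 were lowest in hSTAT5BN642H, and Cd8a, Cd3d and Cd3e were highest in WT replicate 1. The part of these differences in the results for the receptor loci was not tested.

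Read numbers along Tcra and Tcrd were compared first. Of the bins with a sum of at least 60 reads over the libraries, 165 lay in the T cell receptor loci. Between hSTAT5BN642H and WT, 3 of the 165 passed an adjusted p of 0.05 (limma), all 3 lower in hSTAT5BN642H, whereas 0.117% of 184957 bins passed in the whole genome (35 higher and 181 lower). The 3 bins lay on both sides of Tcrd, namely 2 near the 3′ end of the Trav/Trdv array, neither of which holds an annotated V gene, and 1 at the start of the Traj array. Between hSTAT5B and WT, 0 of the 165 passed against 0.00216% of all bins. Of the 165, 21 had an unadjusted p under 0.05, against 14543 of all 184957 bins, and their smallest adjusted p was 0.523 (limma). Between hSTAT5BN642H and hSTAT5B, 0 passed against 0% of all bins. There 19 of the 165 had an unadjusted p under 0.05, against 15717 of all 184957, with 0.288 as the smallest adjusted p (limma).

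The bin at chr14:54150001-54160000 holds Traj61 to Traj56, the first segments of the Traj array. It had 175 and 93 reads in the WT libraries, 78 and 66 in the hSTAT5B libraries and 37 and 27 in the hSTAT5BN642H libraries. Scaled to 1000000 CpG reads of the library (RPM), these were 3.97 and 1.71, 1.64 and 1.53, and 0.552 and 0.532 RPM. The 3 genotypes did not overlap, WT replicate 1 was the highest by far, and the hSTAT5BN642H libraries were the lowest. The log2 difference between hSTAT5BN642H and WT was -2.23 (SE 0.36), a level of 0.213 times that in WT (adjusted p = 0.0405, limma), and hSTAT5B lay between the other genotypes at a log2 difference from WT of -0.71 (SE 0.36, adjusted p = 0.661). The 3 CpGs of the window shown for this bin had 55, 30, 23, 20, 12 and 7 reads at the first of them in the order WT, hSTAT5B, hSTAT5BN642H, and their levels were between 85.7% and 100% in every library. The few reads of this stretch in hSTAT5BN642H were methylated at all 3 CpGs.

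The bin at chr14:54020001-54030000 had 103 and 116 reads in WT, 47 and 79 in hSTAT5B and 41 and 8 in hSTAT5BN642H. Both hSTAT5BN642H libraries lay below the other 4, and replicate 2 stood far below replicate 1. The log2 difference from WT was -2.76 (SE 0.49), or 0.148 times the WT level (adjusted p = 0.0491, limma). In the first window shown for the Trav/Trdv array, the CpG of this bin had 37 and 32, 20 and 26, and 18 and 2 reads. The bin at chr14:54080001-54090000 had 121 and 84, 45 and 47, and 34 and 26 reads in the same order, with no overlap between genotypes in RPM. Its log2 difference from WT was -1.98 (SE 0.35), or 0.254 times the WT level (adjusted p = 0.0491, limma). The first CpG of the second window lies in it and had 49 and 52, 27 and 30, and 10 and 16 reads, in the same order of genotypes. The neighboring bin at chr14:54100001-54110000, the last before Trdd1 to be tested, just missed the threshold, with 81 and 88, 39 and 32, and 19 and 27 reads and a log2 difference of -2.10 (SE 0.39, adjusted p = 0.055, limma). The bin at chr14:54090001-54100000 had 56 and 32, 41 and 44, and 5 and 15 reads and a log2 difference of -2.40 (SE 0.60, adjusted p = 0.108, limma).

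**Figure D1:**
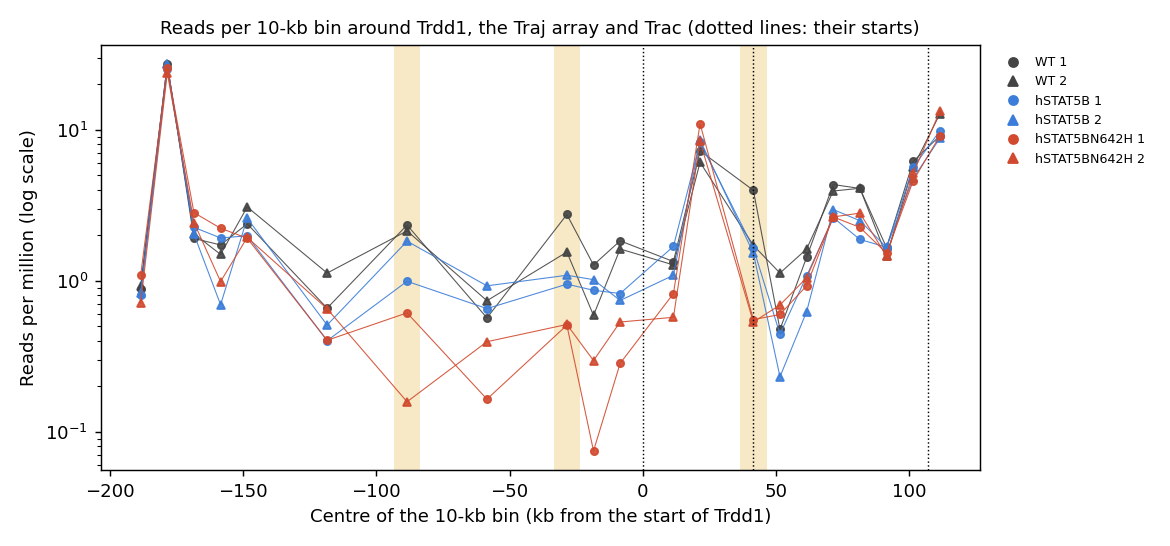
Reads scaled to the library total (RPM, log scale) in each tested 10-kb bin against its distance in kb from the start of Trdd1, with 1 point per library, lines joining the points of a library, dotted lines at the starts of Trdd1, the Traj array and Trac, and bands over the 3 bins that passed the test. In the bands the hSTAT5BN642H libraries sit between 0.158 and 0.612 RPM and the WT libraries between 1.55 and 3.97 RPM, without overlap.

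These calls rested on single libraries. Without WT replicate 1, 0 of the 165 bins passed (21 at an unadjusted p under 0.05, smallest adjusted p = 0.381), and without hSTAT5BN642H replicate 2, 0 passed (23 unadjusted, smallest adjusted p = 0.0687). Without hSTAT5BN642H replicate 1, 1 passed, and without WT replicate 2, 4 passed (limma throughout). With voom weights 0 passed, with 33 at an unadjusted p under 0.05, against 26093 of all 184957 bins. The direction of the 3 bins was the same in each of 14 alternative settings, with log2 differences between -3.67 and -1.57. All bins of the genome had a median log2 difference of -0.12 between hSTAT5BN642H and WT, against which these differences are to be read, and with every library centered on its median 1 of the 3 bins passed (55 higher and 100 lower in the genome).

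The libraries differed in fragment length. Reads at MspI sites were therefore also divided by the mean of sites with like flanking fragments in the same library. That mean covered autosomal sites outside the T cell receptor and immunoglobulin loci with under 1000 reads in each library. Sites whose shorter flanking fragment was longer than 400 bp were left out. On this scale a value of 1 means as many reads as at like sites. The last 100 kb of the Trav/Trdv array before Trdd1 (27 sites) had ratios of 0.621 and 0.473 in WT, 0.316 and 0.420 in hSTAT5B and 0.118 and 0.145 in hSTAT5BN642H. WT was the highest here and hSTAT5BN642H the lowest, with no overlap between any of the genotypes. Every library was under 1, but so were all libraries in other steps, as in the fifth back from Trdd1 (25 sites), at 0.430 to 0.536. In the second step back from Trdd1 (33 sites) the ratios were 0.840 and 0.812, 0.730 and 0.824, and 0.718 and 0.700. There hSTAT5BN642H was the lowest and hSTAT5B overlapped WT. In the third step (8 sites) hSTAT5B overlapped hSTAT5BN642H, and in the fourth (14 sites) no genotypes overlapped, at 0.954 and 0.954, 0.724 and 0.876, and 0.532 and 0.672. Over all 17 steps of the array, both hSTAT5BN642H libraries were below both WT libraries in 9, above both in 3 and neither in 5. No share was computed for steps of this size elsewhere in the genome, so whether these counts are unusual was not tested. The 4 steps nearest to Trdd1 were among the 9, and the others of the 9 were scattered along the array. The 3 steps with higher ratios all lay more than 1000 kb before Trdd1, and 1 of them (21 sites) had 0.575 and 0.523, 0.570 and 0.517, and 0.683 and 0.639.

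**Figure D2:**
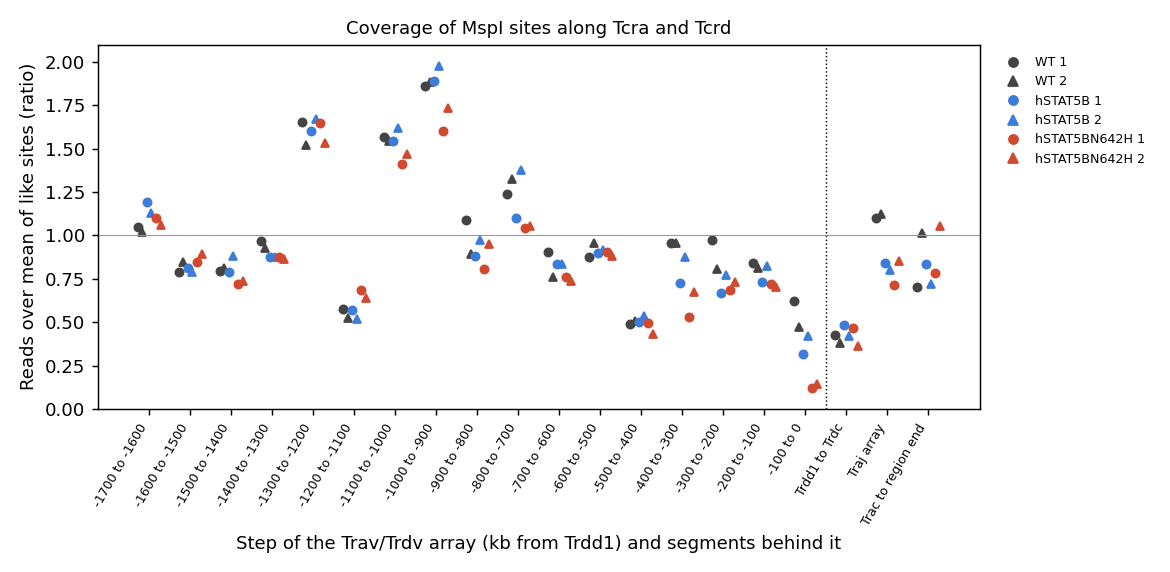
Reads at MspI sites as a ratio to the mean of sites with like fragments in the same library, for each 100-kb step of the Trav/Trdv array counted back from Trdd1 and for the segments behind it, with 1 point per library and a grey line at 1. In the last step before Trdd1 the WT libraries sit at 0.473 and 0.621 and the hSTAT5BN642H libraries at 0.118 and 0.145, the lowest points of the plot.

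When the bins were tested on this scale, 0 of 138 bins of the loci passed, against 0.000664% of all bins, and the smallest adjusted p was 0.404 (limma). Before adjustment 28 of the 138 were under 0.05, against 10585 of all 150636. Leaving out WT replicate 1 as well gave 0, with 20 at an unadjusted p under 0.05. The 3 bins kept their direction, and the bin of Traj61 to Traj56 had ratios of 1.44 and 0.659, 0.612 and 0.564, and 0.225 and 0.167 (log2 difference -2.21, SE 0.37, adjusted p = 0.43). Both hSTAT5BN642H libraries lay below both WT libraries in 49 of the 138 bins (35.5%), against 17.9% of all bins, and above both in 24 (17.4%), against 19.4%. In RPM the counts were 65 of 165 lower (39.4%, against 31.6% of all bins) and 22 higher (13.3%, against 14.1%).

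Tcrd itself lies between these stretches. Trdc, its constant gene (ENSMUSG00000104876.1, chr14:54142851-54148868), had 13 CpGs within the gene or 2 kb, none with 5 reads in all libraries, and these had 17 and 9 reads in WT, 10 and 5 in hSTAT5B and 1 and 1 in hSTAT5BN642H. The reads at Trdc were few in every library and fewest in hSTAT5BN642H. From Trdd1 to Trdc as a whole, in contrast, there were 8.93 and 7.50, 10.1 and 9.68, and 11.8 and 8.95 RPM, and hSTAT5BN642H was not lower. Most of these reads lay in the bin at chr14:54130001-54140000, which holds Trdj2 and repeats, with 319 and 330, 391 and 369, and 733 and 424 reads. Outside repeats (7 sites) the ratio to like sites was 0.373 and 0.458, 0.466 and 0.165, and 0.236 and 0.0502, so that hSTAT5BN642H was the lowest genotype there and overlapped hSTAT5B.

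The Traj array, whose segments are the acceptors of the V-to-J joining, had 22.5 and 20.4 RPM in WT, 15.8 and 14.7 in hSTAT5B and 13.5 and 14.9 in hSTAT5BN642H. Both transgenic genotypes lay below WT and overlapped each other. The log2 difference from WT was -0.60 for hSTAT5BN642H and -0.49 for hSTAT5B, each at the smallest p that an exact permutation test of 2 against 2 libraries can give (p = 0.333, 2-sided), so no segment could pass a threshold of 0.05. From Trac to the end of the interval, which joining leaves in place, the values were 8.66 and 11.9, 8.94 and 8.29, and 8.67 and 12.7 RPM, and the genotypes overlapped.

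None of the 3 bins that passed lay at Tcrb. The Trbv array had 53.0 and 46.1, 43.8 and 42.4, and 44.2 and 42.4 RPM, lower in hSTAT5BN642H than in WT without overlap (log2 difference -0.19, exact permutation test, p = 0.333), and the trypsinogen interval 22.7 and 20.5, 20.8 and 20.03, and 20.1 and 19.4. The CpGs from Trbd1 to Trbc1 numbered 3 and had 22 and 15 reads in WT, 9 and 9 in hSTAT5B and 6 and 0 in hSTAT5BN642H, so WT was the highest on few reads. From Trbd2 to Trbc2, which holds the second D, J and C cluster, there were 4.38 and 5.45, 4.404 and 2.91, and 5.60 and 5.50 RPM. A bin named for its large difference, at chr6:41190001-41200000 in the Trbv array, had 132 and 59, 46 and 18, and 25 and 19 reads (log2 difference between hSTAT5BN642H and WT -2.22, SE 0.50, adjusted p = 0.0829, limma). WT replicate 1 was far above the other libraries there, at 2.99 RPM against 1.09 in WT replicate 2. The bin next to it, at chr6:41200001-41210000 with Trbv21, had 330 and 299, 213 and 176, and 239 and 192 reads, and both hSTAT5BN642H libraries were below the other 4 in RPM (log2 difference from WT -0.80, SE 0.21, adjusted p = 0.112, limma).

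Tcrg had 27.9 and 27.4 RPM in WT, 26.9 and 28.9 in hSTAT5B and 28.9 and 31.7 in hSTAT5BN642H, so it was not lower in hSTAT5BN642H. The immunoglobulin loci, which are not assembled in T cells as a rule, also had like numbers in all genotypes. Igh had 457 to 478 RPM, Igk 724 to 762 and Igl 49.7 to 53.5, and the level in hSTAT5BN642H was 0.998, 1.03 and 1.03 times that in WT. The whole of Tcra and Tcrd was at 0.921 times the WT level, with 405 and 402, 387 and 387, and 378 and 366 RPM.

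Outliers among single bins were looked for as a description, without a test. Of 148 bins of the loci, 8 had 1 library below the lowest of the other 5 by more than a factor of 2 or above the highest by as much. The high library was WT replicate 1 in both bins of that kind, the bin of Traj61 to Traj56 and the bin at chr6:41190001-41200000. A low library was hSTAT5BN642H replicate 1 in 3 bins, hSTAT5BN642H replicate 2 in 1 and hSTAT5B replicate 1 in 2, all at Tcra and Tcrd. Over all bins of the genome, WT replicate 1 was high in this way in 2.06%, and the shares of bins in which they were low were 0.723%, 0.722% and 0.323% for hSTAT5BN642H replicates 1 and 2 and hSTAT5B replicate 1.

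Methylation separated the Traj array and the stretches from Trac on and from Trbd2 to Trbc2 from most of the loci. In the Trav/Trdv array 429 of 507 CpGs (84.6%) had a mean level of at least 80%, as had 52 of 59 in the Trbv array, 35 of 40 in the trypsinogen interval and all 21 from Trdd1 to Trdc. In the Traj array 3 of 23 had such a level and 8 were at or below 20%, from Trac to the end of the interval 0 of 15 and 5, and from Trbd2 to Trbc2 0 of 10 and 7. Of all CpGs in the genome 58.5% were at or above 80%. These 3 stretches, which hold joining and constant genes of the αβ receptor, were thus the parts with low methylation, in all 3 genotypes. The constant genes themselves had few CpGs. From Trac on, the 5 CpGs at or below 20% lay past the gene, and none of the 10 from Trbd2 to Trbc2 lay within Trbc2. The 4 CpGs within C genes were at 36.8% and 51.65% in WT, 31.2% and 34.3% in hSTAT5B and 17.2% and 29.5% in hSTAT5BN642H. Repeats held 385 of the 507 CpGs of the Trav/Trdv array and 42 of 59 in the Trbv array. They held 36 of 40 in the trypsinogen interval and all 21 from Trdd1 to Trdc. None lay in the Traj array, from Trac on or from Trbd2 to Trbc2. A CpG outside repeats near Trdj1, chr14:54125126, was at 47.8% and 62.9%, 53.1% and 50%, and 40% and 100% (4 reads in the last). The part of repeats in the contrast was not tested.

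The Traj array had a mean level over its 23 CpGs of 50.1% and 47.3% in WT, 40.4% and 37.7% in hSTAT5B and 25.9% and 30.9% in hSTAT5BN642H. The genotypes followed each other without overlap, WT being the highest. The means were 48.7% ± 1.98 (SD, n = 2), 39.0% ± 1.91 and 28.4% ± 3.51, so that hSTAT5BN642H differed from WT by -20.3 points and hSTAT5B by -9.67 points (exact permutation test, p = 0.333, the smallest possible). Between hSTAT5BN642H and WT 20 of the 23 CpGs had a lower mean and 3 a higher one, with a median difference of -17.3 points, and the 3 were those of the window between Traj59 and Traj58, where few reads were left. Both hSTAT5BN642H libraries were below both WT libraries at 14 of the 23, against 12.6% of all CpGs, and above both at 0, against 8.89%. CpGs close together can lie on the same reads, so the 23 were not independent of each other. Cd8b1 had the same order of genotypes, WT at 45.6% and 44.6% and hSTAT5BN642H at 15.4% and 15.3%, and its part in the difference was not tested.

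**Figure D3:**
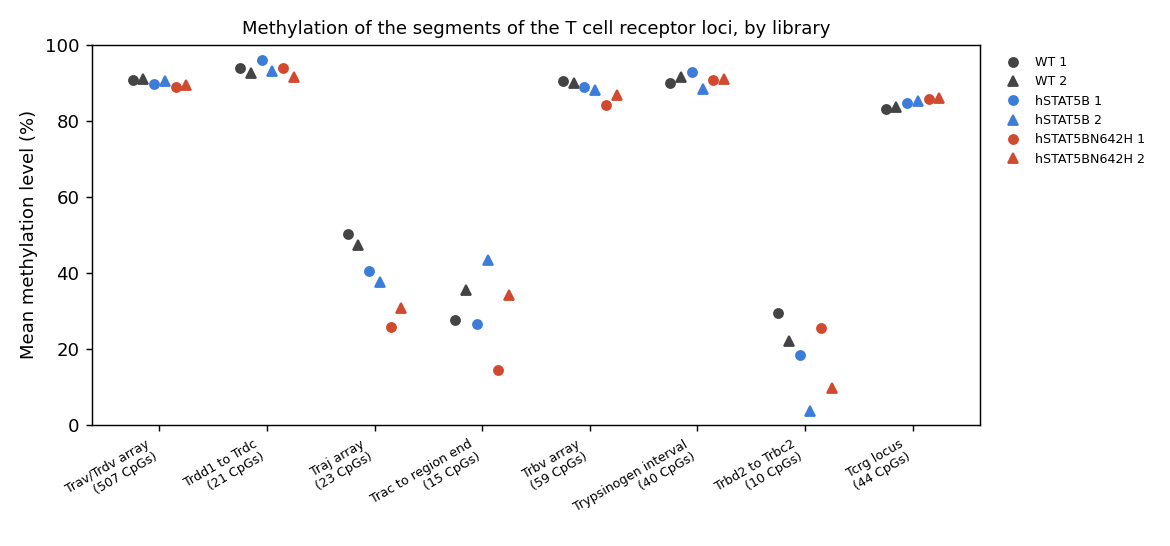
Mean methylation level (%) of each segment of the T cell receptor loci over the CpGs that had 5 or more reads in each library, with 1 point per library. In the Traj array the WT libraries sit at 50.1% and 47.3%, hSTAT5B at 40.4% and 37.7% and hSTAT5BN642H at 25.9% and 30.9%, whereas the V arrays lie between 84.2% and 91.1% in every library.

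The low levels of hSTAT5BN642H in the Traj array lay along most of it. Between Traj31 and Traj30, the 3 CpGs of the window shown above had levels of 55.6% and 79.2%, 54.1% and 72.9%, and 68.3% and 58.3% in WT. In hSTAT5BN642H they had 22.0% and 38.5%, 28.6% and 33.3%, and 19.05% and 50%. In hSTAT5B the first 2 were at 77.8% and 63.9% and at 81.5% and 63.9%, like WT or above, and the third was at 39.5% and 42.4%. The CpG at chr14:54169597, near Traj48, was at 84.6% and 87.2% in WT, 93.8% and 85.7% in hSTAT5B and 34.6% and 44.0% in hSTAT5BN642H. Beside Traj41, chr14:54176471 was at 60% and 15.4%, 41.2% and 9.09%, and 0% (0 of 23 reads, which allows up to 13.04%) and 18.2%, and there the replicates of WT differed more than the genotypes.

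Near Traj20 the order was another one. The CpG at chr14:54199903 was at 42.4% and 42.1% in WT, 18.2% and 7.69% in hSTAT5B and 21.7% and 31.6% in hSTAT5BN642H, on 11 to 38 reads. Here hSTAT5B was the lowest genotype, and both transgenic genotypes lay below WT. The bin with Traj7 to Traj1, the segments nearest to Trac, had 34.0% and 20.8% in WT, 19.8% and 18.8% in hSTAT5B and 13.4% and 5.51% in hSTAT5BN642H over 6 CpGs (adjusted p = 0.584 against WT, limma).

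Trac encodes the constant region of the α chain (ENSMUSG00000076928.5, chr14:54220521-54224206). Its 12 CpGs with enough reads lay in the gene or within 2 kb. Most of them lay at the end of the Traj array and were also counted there. The 12 had a mean level of 30.3% and 31.9% in WT, 23.4% and 23.8% in hSTAT5B and 13.5% and 12.1% in hSTAT5BN642H. The replicates lay close together and the genotypes apart. The means were 31.1% ± 1.16 (SD, n = 2), 23.6% ± 0.271 and 12.8% ± 0.948, and the difference from WT was -18.3 points for hSTAT5BN642H and -7.49 points for hSTAT5B. The 2 intronic CpGs shown above were at 49.2% and 46.7%, 40.4% and 39.3%, and 22.0% and 26.7% at chr14:54221152 and at 42.6% and 41.1%, 34.4% and 31.1%, and 28.0% and 22.1% at chr14:54221165. At both, every hSTAT5B library lay between WT and hSTAT5BN642H.

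Over a longer stretch that reaches past Trac the genotypes did not separate. The 15 CpGs from the start of Trac to the end of the interval had mean levels of 27.5% and 35.5%, 26.6% and 43.4%, and 14.5% and 34.1%, and the groups overlapped. The last CpG of this stretch to be named, chr14:54229012, was at 68.4% and 80.5%, 86.2% and 87.2%, and 49.2% and 72.3%. The replicates of hSTAT5BN642H stood far apart there.

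**Figure D4:**
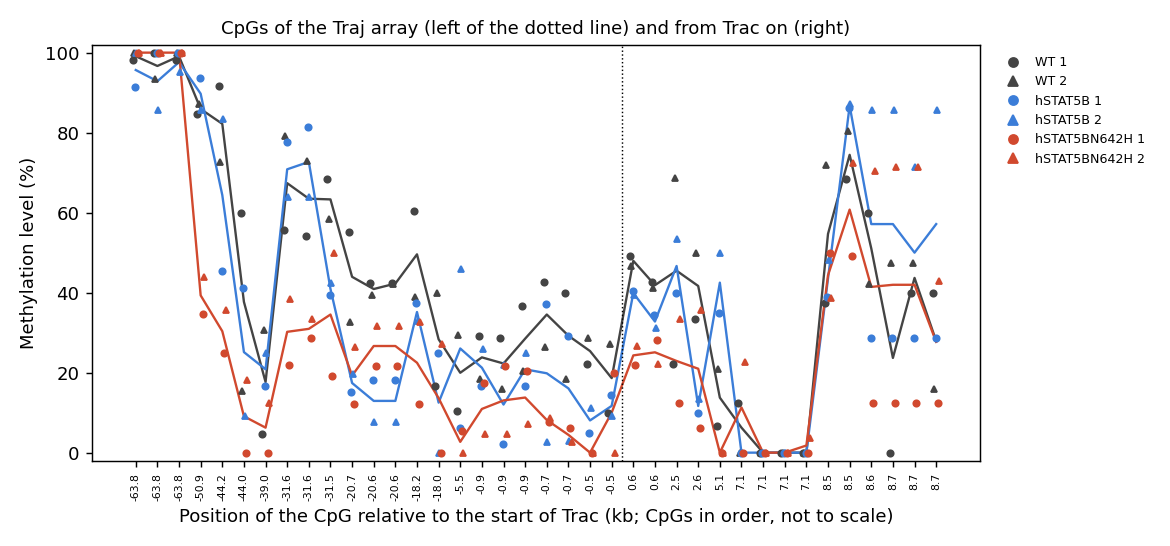
Methylation level (%) of each CpG of the Traj array (left of the dotted line) and from Trac on (right), in order and not to scale, labeled with the distance from the start of Trac in kb, with 1 point per library and lines through the means of the genotypes. The first 3 CpGs are between 85.7% and 100% in all libraries, and behind them the line of hSTAT5BN642H runs below that of WT at the 20 other CpGs of the array.

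At Tcrb the level of the J and C cluster was low in all libraries and uneven. From Trbd2 to Trbc2, 10 CpGs had mean levels of 29.6% and 22.2% in WT, 18.4% and 3.64% in hSTAT5B and 25.4% and 9.72% in hSTAT5BN642H, with overlap. The CpG chr6:41542865, 62 bases from Trbj2-1, had the largest difference between hSTAT5BN642H and WT among CpGs with 10 or more reads in every library. It was at 66.7% (8 of 12 reads) and 70.4% (19 of 27) in WT, 26.1% and 0% (0 of 16 reads, which allows up to 18.75%) in hSTAT5B and 21.7% and 23.3% in hSTAT5BN642H. The 95% Wilson intervals, which cover counting error only, ran from 39.1% to 86.2% and from 51.5% to 84.2% in WT and from 9.66% to 41.9% and from 11.8% to 40.9% in hSTAT5BN642H. Both transgenic genotypes lay below WT, with differences of -55.5 points for hSTAT5B and -46.0 points for hSTAT5BN642H, and they overlapped each other (adjusted p = 1 and 0.728, limma). Trbc2 had 1 such CpG, at 18.2% and 26.7%, 18.2% and 6.90%, and 4.55% and 21.1%, and Trbc1 had 0 CpGs in the calls.

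The V arrays were highly methylated in all genotypes, and differences there were small. The Trav/Trdv array had mean levels of 90.8% and 91.1% in WT, 89.7% and 90.4% in hSTAT5B and 89.0% and 89.5% in hSTAT5BN642H, a difference of -1.71 points from WT in the last. The Trbv array had 90.5% and 89.97%, 88.9% and 88.1%, and 84.2% and 86.8%, a difference of -4.78 points in the last. In both, the hSTAT5BN642H libraries were the lowest. The immunoglobulin loci were also lower in hSTAT5BN642H than in WT without overlap, with differences of -1.003 points at Igh, -1.34 at Igk and -1.88 at Igl.

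Within V genes 29 CpGs in 12 genes had enough reads. The mean in hSTAT5BN642H was below that in WT in 7 of the 12, and both hSTAT5BN642H libraries were below both WT libraries in 2, to be read beside the 12.6% of all single CpGs. These were Trav3n-3 (3 CpGs), at 91.2% and 88.1% in WT, 86.2% and 79.1% in hSTAT5B and 87.2% and 82.9% in hSTAT5BN642H, and Trbv21 (4 CpGs), at 100% and 92.1% in WT, 93.4% and 71.2% in hSTAT5B and 75.6% and 74.6% in hSTAT5BN642H. Some V genes are near copies of each other, since part of the Trav array is duplicated, so reads may have been placed in the wrong copy. CpGs within J genes (4) and C genes (4) differed more than those in V genes, by -19.6 and -20.9 points between hSTAT5BN642H and WT against -3.27, and D genes had 0 CpGs.

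The CpGs outside repeats carried most of the difference. The 200 outside repeats had mean levels of 74.6% and 75.3%, 70.97% and 72.4%, and 68.2% and 69.5%, a difference of -6.12 points between hSTAT5BN642H and WT, and the 519 within repeats had a difference of -0.944 points. Over whole loci, Tcra and Tcrd had 87.6% and 87.9%, 86.2% and 87.1%, and 84.6% and 85.7%, and Tcrb 84.7% and 84.3%, 83.8% and 80.4%, and 81.2% and 81.2%. Both were lower in hSTAT5BN642H than in WT without overlap, with differences of -2.57 and -3.32 points (exact permutation test, p = 0.333).

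Tcrg went the other way. Its 44 CpGs had mean levels of 83.2% and 83.6% in WT, 84.7% and 85.2% in hSTAT5B and 85.6% and 85.8% in hSTAT5BN642H. WT was the lowest and hSTAT5BN642H the highest, by 2.29 points (exact permutation test, p = 0.333). This rested on the mean over CpGs, since pooled reads gave 83.03% and 85.25% in WT and 84.69% and 84.63% in hSTAT5BN642H, a difference of 0.52 points with overlap. The single CpGs did not share this direction, as 18 were lower in hSTAT5BN642H than in WT and 21 higher, with a median difference of 0. A CpG in the coding sequence of Tcrg-V7, chr13:19178079, was at 47.4% and 16.7%, 21.1% and 30%, and 63.2% and 41.2%. Tcrg-C3, a constant gene with 7 CpGs, was at 76.7% and 68.3%, 72.9% and 69.5%, and 77.9% and 74.3%, with overlap, and Tcrg-C1, Tcrg-C2 and Tcrg-C4 had 0 CpGs with enough reads.

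Over the genome-wide tests no single CpG of the loci passed. By limma on the log ratio of methylated to unmethylated reads, 0 of 719 CpGs passed between hSTAT5BN642H and WT, between hSTAT5B and WT and between hSTAT5BN642H and hSTAT5B, against 0% of all CpGs each time. At an unadjusted p under 0.05 there were 56, 31 and 41 of the 719, against 74908, 57804 and 74778 of all 1192344 CpGs. Of the 10-kb bins with at least 3 CpGs, 0 of 82 passed in each comparison, against 0% of all bins. Those at an unadjusted p under 0.05 numbered 12, 5 and 8, against 8222, 6574 and 8239 of all 105057 bins. The smallest adjusted p was 0.728 for a CpG and 0.562 for a bin. In simulated data this model called none of the changes put in, so that a count of 0 says little about their absence. When values were weighted by their reads, 0 CpGs and 0 bins of the loci passed in any comparison. The smallest adjusted p was 0.221 (limma), for a bin between hSTAT5BN642H and WT. In that comparison 15 of 82 bins had an unadjusted p under 0.05, against 10458 of all 105057.

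Fisher's exact test on the pooled reads of a genotype takes no account of the spread between libraries. By this test 15 of the 719 CpGs passed between hSTAT5BN642H and WT, all 15 lower in hSTAT5BN642H, against 0.855% of all CpGs. Between hSTAT5B and WT 2 passed, against 0.193%, and between hSTAT5BN642H and hSTAT5B 8 passed (7 lower and 1 higher), against 0.668%. Of the 82 bins 18 passed between hSTAT5BN642H and WT, all 18 lower, against 12.9% of all bins. The counts were 5 between hSTAT5B and WT, against 5.43%, and 11 between hSTAT5BN642H and hSTAT5B (10 lower and 1 higher), against 12.8%. Over the 719 CpGs both hSTAT5BN642H libraries were below both WT libraries at 131 (18.2%, against 12.6% of all) and above both at 61 (8.48%, against 8.89%).

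Genes that work with the receptor or build it were examined as a list of 8, and 0 CpGs of them passed by limma. Cd3e and Cd3d, which encode chains of the CD3 complex that carries the receptor's signal, had 1 and 2 CpGs with enough reads. Cd3e was at 52.9% and 30% in WT, 0% and 0% in hSTAT5B and 36.4% and 15.4% in hSTAT5BN642H, and Cd3d at 46.5% and 3.57%, 0% and 0%, and 11.8% and 0%, so WT replicate 1 was the highest at both. Cd3g was at 76.4% to 84.0%, and Cd247, the ζ chain, at 35.3% to 42.0%. Ptcra, the pre-T cell receptor chain of immature T cells, was at 90.1% to 95.7%, and the recombination genes Rag1 and Dntt at 50.8% to 57.7% and 52.0% to 58.8%. Rag2 had 0 CpGs with enough reads.

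Other bins were named because they differed most in the remaining comparisons, and none of them passed the test. Between hSTAT5B and WT, the bin of Trbv2 and Trbv3 at chr6:41040001-41050000 had 44 and 30, 15 and 12, and 13 and 26 reads (log2 difference -1.26, SE 0.59). The bin of Traj55 to Traj48 at chr14:54160001-54170000 had 21 and 61, 21 and 10, and 40 and 35 reads (log2 difference -1.14, SE 0.52). The bin of Trav4d-2 at chr14:52710001-52720000 was higher, with 13 and 18, 30 and 33, and 26 and 33 reads (log2 difference 1.10, SE 0.49). Between hSTAT5BN642H and hSTAT5B, the bin of Trav17 at chr14:53800001-53810000 had 58 and 35 reads in hSTAT5B and 18 and 26 in hSTAT5BN642H (log2 difference -1.39, SE 0.44), and the bin at chr14:54050001-54060000 had 31 and 40 against 11 and 20 (log2 difference -1.55, SE 0.52). All 5 had an adjusted p of at least 0.424 (limma).

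CpGs named for the other comparisons behaved less evenly. Near Trav6d-5, chr14:52794149 was at 54.5% and 78.9% in WT, 100% and 94.1% in hSTAT5B and 87.5% and 70.97% in hSTAT5BN642H. Near Trav14d-3-dv8, chr14:53079798 was at 100% and 66.7%, 60% and 50%, and 56.8% and 75%. Near Trbv27, chr6:41262140 was at 93.8% and 80%, 81.2% and 56.5%, and 100% and 100%, with hSTAT5BN642H the highest. Each of these rested on 10 to 40 reads per library, and each had an adjusted p of at least 0.757 (limma).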

How the data were processed

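RRBS calls of 6 libraries from CD8+ T cells were analyzed. The authors trimmed reads with Trimmomatic and aligned them to GRCm38 (mm10) with BSMAP in RRBS mode (versions not given in the sources used here), and their own code gave the deposited values per CpG: the count of methylated reads over the count of all reads, not normalized, and a score of the methylated share times 1000, which the authors rounded and which was used here only to check the counts. The deposited counts are text in another format than a count table, so limma 3.58.1 (R 4.3.3) on log ratios was used.

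Genotypes were taken from the labels, with 2 libraries each. The members and the lists of genes were chosen with earlier results of these data known. Methylation was tested as log2((methylated + 1)/(unmethylated + 1)) at CpGs with 5 or more reads in each of the 6 libraries, and in 10-kb bins with at least 3 of them. Coverage was tested as log2 of (reads + 1) scaled to 1000000 CpG reads of the library, in bins with at least 60 reads, with a trended variance. Both models included all 6 libraries, were adjusted by Benjamini-Hochberg over all features of the genome, and were tested on simulated data. Locus and segment values were compared by a 2-sided exact permutation test. CpGs with reads, not fragments, were counted, so 1 read can count at several CpGs, and PCR copies were not removed here.

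Constant genes and all segments were named, with CpGs or bins that passed. As a description, the 5 CpGs with 10 or more reads in every library and the 5 bins with a mean of at least 20 reads and the largest difference per comparison were named too, as were bins in which 1 library lay at under 0.5 times the lowest or over 2 times the highest of the others. The CpG near Traj48 and the other bins beside those that passed or were named were chosen after their values were seen. The same replicate numbers did not pair the libraries (correlations of deviations between -0.058 and 0.0525). Like MspI sites and read weights were added after the data were seen.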

Additional observations from a re-analysis of the deposited data

How the results depend on the processing

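Every CpG and bin methylation count for the T cell receptor loci remained 0 under the other offsets, read minimums, variance trend, 5-kb bins, 2-genotype fits, replicate block, read weights and with each library left out. Fisher's exact test on pooled reads gave 15, 2 and 8 CpGs of the loci and 10199, 2304 and 7965 in the genome (hSTAT5BN642H against WT, hSTAT5B against WT, hSTAT5BN642H against hSTAT5B), and 18, 5 and 11 bins of the loci and 13536, 5701 and 13466 in the genome. Read weights gave 26 and 1 bins in the genome for hSTAT5BN642H against WT and against hSTAT5B, and 33 and 3 without WT replicate 1.

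Coverage calls between hSTAT5BN642H and WT were less stable. In the genome the 216 became 112 with totals without CpGs of 1000 or more reads, 134 with an offset of 0.5 reads, 5 with no minimum, 6 with voom weights, 846 with each 50-bp window once, 643 with 20-kb bins, 1 with like restriction sites and 0 with those and without WT replicate 1 (limma, 8621 at an unadjusted p under 0.05), and 15 to 976 with a library left out. In the loci the 3 became 1 with the smaller totals, 1 with median centering, 1 with the offset, 0 with no minimum, 0 with voom weights, 0 with like sites with or without WT replicate 1, and 0 to 4 with a library left out. The bin of Traj61 to Traj56 was called in 8 of 14 alternatives and the other 2 bins in 5 each, and none of the named bins changed direction. Between hSTAT5B and WT the 4 calls in the genome became 2 and 0 with like sites, with and without WT replicate 1, and 4 to 23 with a library left out. Between hSTAT5BN642H and hSTAT5B the 0 became 82 with 50-bp windows, 6 with 20-kb bins, and 0 to 25 with a library left out.

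With the replicate block, 3 bins of the loci passed as before, 308 passed in the genome, and the 0 between hSTAT5BN642H and hSTAT5B became 2. Correlations of deviations did not show the numbers to pair the libraries.

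Directions that reversed were of small differences. The level at Tcrb between hSTAT5BN642H and hSTAT5B was 0.153 points outside repeats and -2.64 to 0.821 with a library left out, and that at Tcrg between hSTAT5B and WT was -0.707 on pooled reads. Segment coverage (log2) between hSTAT5BN642H and hSTAT5B was -0.13 from Trdd1 to Trdc with 50-bp windows (-0.15 to 0.25 with a library left out), -0.024 for the Trbv array with smaller totals and -0.10 outside repeats (-0.024 to 0.036), and 0.012 for the trypsinogen interval with 50-bp windows. It was 0.0375 there outside repeats between hSTAT5B and WT. With a library left out it ranged from -0.23 to 0.32 at Trac between hSTAT5BN642H and WT, and from -0.041 to 0.062 at Tcrg between hSTAT5B and WT.

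The ratio to like sites between hSTAT5BN642H and WT (log2) moved to -0.33 outside repeats and -0.19 with medians for the Trav/Trdv array, -1.92 outside repeats from Trdd1 to Trdc, -0.36 outside repeats for the trypsinogen interval and 0.033 with medians from Trbd2 to Trbc2. For whole loci it was -0.33 and -0.20 at Tcra and Tcrd, 0.049 and -0.041 at Igh and 0.015 and -0.036 at Igk, outside repeats and with medians. The causes of these moves were not tested. With 2 libraries a genotype and reads of 10 to 40 at many CpGs, small differences were not detectable, and large ones could be missed too. The difference of -46.0 points at chr6:41542865 between hSTAT5BN642H and WT had an adjusted p of 0.728 (limma).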
